A study of Mus musculus with 15 samples.

Results

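Cytosolic ribosomal protein genes were followed through forelimb joint tissue of male DBA/1 mice. A gene counted as a member if it was annotated as protein-coding and carried an Rpl or Rps number, or the name Rplp0, Rplp1, Rplp2 or Rpsa. The kinases named Rps6k and the gene Rps19bp1 were left out. This gave 89 of the 26688 genes in the count table, and all 89 passed the filter on low counts. They were 43 large subunit genes, 31 small subunit genes, the 3 genes of the P stalk, 7 paralogues and 5 further copies that the table lists as protein-coding. The first 3 classes, 77 genes, are called the core genes here. The muscle paralogue Rpl3l is described apart, but it belongs to the 89 and enters their counts, medians and summed shares. Of the paralogues looked for, Rpl10l and Rps4l were not analysed here.

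Bulk polyadenylated RNA was sequenced in 15 libraries, 5 from each of 3 groups of wild-type mice aged 8 weeks. The CIA+F20 mice had collagen-induced arthritis and received F20, a compound known here only by this code name, by mouth at 10 mg/kg with 1 dose a day for 21 days. The CIA mice had the same arthritis without F20. The healthy mice were left untreated. In this model an immune response to cartilage collagen is raised by injecting type II collagen, here bovine and in Freund's adjuvant with a booster, and mice entered either arthritic group at an arthritis index over 5. Skin and surplus muscle had been cut away from forearm, wrist and paw, and what was left held many cell types. No vehicle for the CIA mice is given in the sources used here. The libraries held 18627303 to 34247317 counted reads. Whether the 5 libraries of a group came from 5 different mice is not stated, so a p-value here speaks of the spread among libraries, part of which may be technical.

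The cytosolic ribosome is built from ribosomal RNA and a large set of small basic proteins, nearly all present in a single copy per ribosome. Their messenger RNAs are made at matched rates, and most begin with a pyrimidine tract at the cap (a 5′ terminal oligopyrimidine or TOP tract) through which the mTOR pathway and the protein Larp1 control how well they are translated. Growing and dividing cells hold many ribosomes. Striated muscle is known for replacing the large subunit protein Rpl3, which reaches towards the catalytic centre, with its paralogue Rpl3l.

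The tract can be read at some of the annotated starts, and 6 of these starts are shown because they carry the feature that the family is known for, with Rpl3l for contrast. Each line gives 30 bases of the transcribed strand from RefSeq on GRCm38.p6, with 10 bases before the annotated start and 20 from the start on. Capitals mark a tract of C followed by at least 4 pyrimidines that begins at the start itself.
Rps6: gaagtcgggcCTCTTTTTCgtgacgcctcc
Rpl35: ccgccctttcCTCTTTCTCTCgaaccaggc
Rpl15: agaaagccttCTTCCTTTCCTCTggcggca
Rpl38: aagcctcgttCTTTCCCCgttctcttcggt
Rplp2: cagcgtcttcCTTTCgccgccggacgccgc
Rps18: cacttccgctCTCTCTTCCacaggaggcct
Rpl3l: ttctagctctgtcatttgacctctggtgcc
The windows lie at chr4:86857348-86857377 (Rps6, minus strand), chr2:39005112-39005141 (Rpl35, minus), chr14:18270967-18270996 (Rpl15, minus), chr11:114668570-114668599 (Rpl38, plus), chr7:141447641-141447670 (Rplp2, plus), chr17:33955646-33955675 (Rps18, minus) and chr17:24727816-24727845 (Rpl3l, plus). The first 6 all open with C at the start, and the Rpl3l window shows no such run at or within 5 bases of the start. Of the 89 genes, 65 had 77 windows in the table, and 14 windows (18.2%) had the tract at the start, against 823 of 32851 windows of all genes (2.51%). Within 5 bases of the start the tract was found in 33 windows (42.9%), against 18.4% of all windows. A match to these letters is a description of the sequence, and a window without one says nothing of the true cap site. Rpl3 was not in this table.

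Levels across the core genes were far from equal. In CPM (reads of a gene relative to all counted reads of its library, with libraries scaled by TMM) per kilobase of coding sequence, averaged over the 15 libraries, the median core gene stood at 359 and the range ran over 1.08 to 1622. Rpl41, which encodes a very short peptide, was highest at 1622, followed by Rplp1 at 1005 and Rps24 at 856. Reads were counted per gene but divided by coding length alone, which was 138 bases for Rpl41. Reads from untranslated parts can therefore raise genes with a short coding sequence in this order. The lowest of all 89 were the copy Rpl36a-ps1 at 0.7, Rpl29 at 1.08 and Rpl36al at 1.11. Among the core genes 6 lay below 35.9, which is 10% of the median, namely Rpl29, Rpl24, Rps10, Rpl21, Rpl13a and Rps18.

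Most of these genes resemble other places in the genome, and the values must be read with that in mind. Of the 77 core genes, 69 had at least 1 further stretch in GRCm39 that matched 80% or more of the coding sequence at 90% identity or more, with a median of 9 and a maximum of 81 such stretches (Rpl21). For 57 core genes every base of the coding sequence was found elsewhere at 98% identity or more. In addition, 97.5% of the coding sequence of Rpl13a, 95.3% of that of Rpl36al, 92.1% of that of Rps10 and 83.4% of that of Rpl24 lay inside a same-strand exon of another annotated gene in GENCODE vM39. Reads of such stretches can be shared or dropped in counting, and how the authors' counting treated them is not given in the sources used here. As an example, the processed copy Rps18-ps5 collected 10202 reads over the 15 libraries and Rps18 itself 3691. A low level of a single gene is therefore uncertain, and differences between groups are given below also for the genes without such copies.

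**Figure D1:**
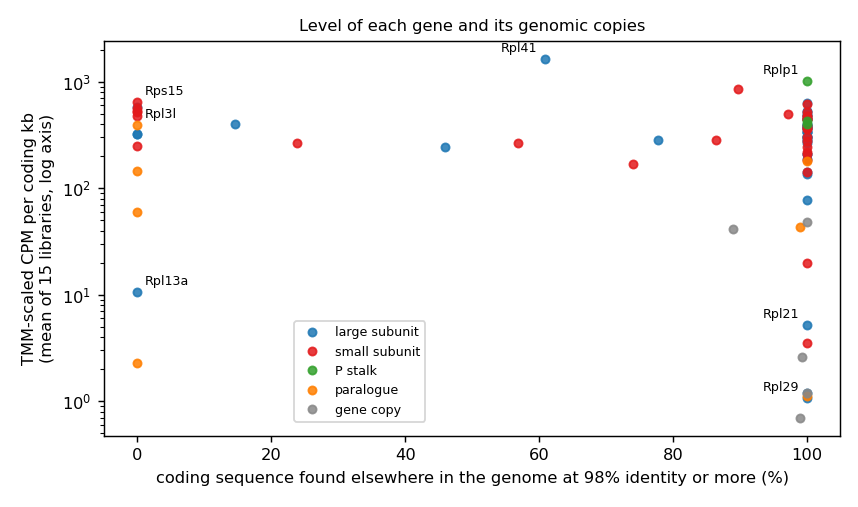
Level of each of the 89 genes (mean TMM-scaled CPM per coding kilobase over 15 libraries, log axis) against the percent of its coding sequence found elsewhere in the genome at 98% identity or more. Rpl21 and Rpl29 at the right edge, both fully covered, lie more than 10 times under the core median of 359, and Rpl13a at the left edge lies in the exon of another gene for 97.5% of its coding sequence.

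In mice with arthritis the ribosomal protein messages took up a larger part of all messages. The 89 genes together made up 1.94, 2.70, 1.63, 2.06 and 1.75% of all reads in CIA libraries 1 to 5, against 1.21, 1.30, 1.26, 1.45 and 1.10% in healthy libraries 1 to 5. The means were 2.01 ± 0.415% in CIA and 1.27 ± 0.128% in healthy (SD, n = 5). Every CIA library stood above every healthy one, with CIA 2 highest. The CIA+F20 libraries held 1.14, 1.20, 1.45, 1.32 and 1.26%, a mean of 1.27 ± 0.120%, all below every CIA library and over the same range as healthy. Without the paralogues, Rpl3l among them, the means were 1.96 ± 0.422% in CIA, 1.20 ± 0.126% in healthy and 1.21 ± 0.116% in CIA+F20.

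The arthritic tissue also differed in what it was made of, and these values stand beside every result that follows. The 17 genes of a skeletal muscle list gave 6.38 to 13.4% of reads in CIA, against 11.1 to 12.6% in healthy, and 10 of the 17 fell in CIA while none rose. They gave 10.5 to 11.9% in CIA+F20. Of 6 slow muscle genes 5 fell in CIA. They summed to 0.0338 to 0.444% of reads in CIA, against 0.199 to 0.622% in healthy, and to 0.255 to 0.577% in CIA+F20. Only CIA 5, at 0.444%, lay within the healthy range, and the other CIA libraries held 0.0338 to 0.0514%. The lubricin gene Prg4, made by the synovial lining, was present at 17.7 CPM or more in every library, so the labelled joint tissue and muscle were both in the samples. All 13 macrophage markers, all 10 neutrophil markers, all 10 granulocyte precursor markers, all 8 proliferation genes, 8 of 9 erythroid genes and 7 of 8 B and plasma cell genes rose in CIA. The macrophage markers summed to 0.0509 to 0.147% of reads in CIA, against 0.00841 to 0.0309% in healthy. The neutrophil markers summed to 0.0462 to 0.339% in CIA, against 0.00354 to 0.0338% in healthy. Of 15 synovial and fibroblast genes 4 rose and 1 fell. Of 8 endothelial genes 1 rose and 4 fell, of 4 tested T cell genes 1 rose, and of 2 tested keratinocyte genes 1 fell. The part of these cells in the ribosomal protein results was not tested, apart from the muscle values given next. In bulk tissue a change in how many cells of a type are present and a change in RNA per cell cannot be told apart.

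Among the 5 CIA libraries, the 3 with the lowest muscle shares (CIA 1, CIA 2 and CIA 4) had the 3 highest ribosomal shares. CIA 3 had the highest muscle share of all 15 libraries (13.4%) and CIA 5 had 11.8%, within the healthy range. Their ribosomal shares were 1.63 and 1.75%, above all 10 libraries of the other groups. These muscle shares are of the skeletal muscle list. On the slow muscle list CIA 3 had the lowest share of all 15 libraries (0.0338%). CIA 4 had the lowest muscle share (6.38%) and a ribosomal share of 2.06%. The ribosomal share was also taken of reads outside the mitochondrial genome and the skeletal muscle list. It was 2.25 to 3.39% in CIA, against 1.60 to 2.05% in healthy and 1.64 to 2.05% in CIA+F20, and CIA still overlapped neither group. Reads of other muscle genes, such as the slow muscle list, stayed in that total. In a fit with the mean log2 level of the muscle list as a covariate, 1 of 89 genes (Rpl3) was called higher in CIA, where 5.14% of all 15770 genes tested were, and 0 of 89 were lower, where 4.5% of all genes were. The median of the 89 was then 0.21, against 0.41 without the covariate, and that of all genes was 0.08.

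**Figure D2:**
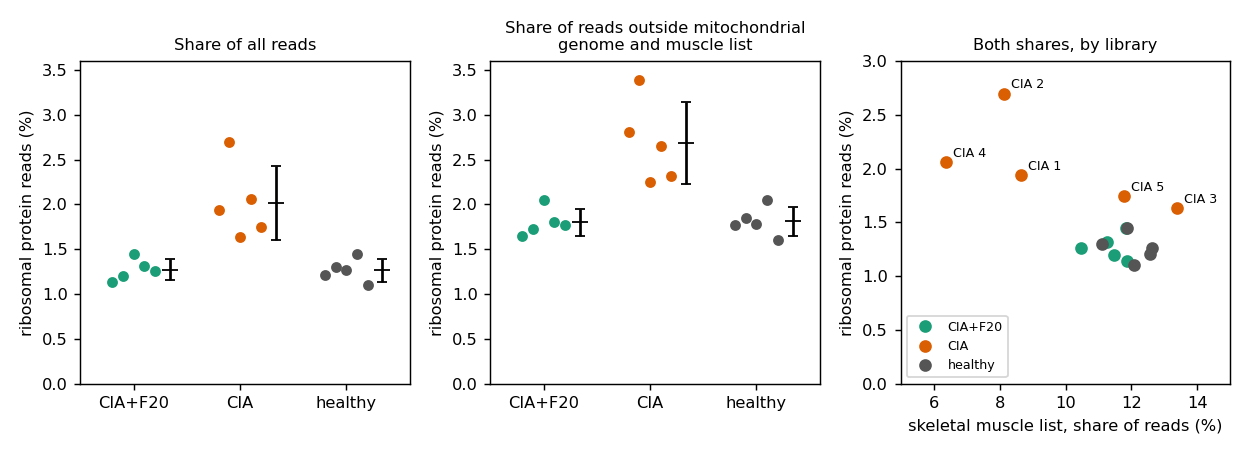
Left and middle, percent of reads from the 89 genes in each library (points) with the group mean and SD (bars, n = 5), of all reads and of reads outside the mitochondrial genome and the muscle list. Right, the same percent of all reads against the share of the muscle list in each library. All 5 CIA libraries lie above the 10 others in each panel, including CIA 3, which had the highest share of the skeletal muscle list but the lowest of the slow muscle list.

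Gene by gene, the rise in CIA was broad and small. Between CIA and healthy 45.5% of all 15770 genes tested passed an edgeR adjusted p under 0.05 in either direction. Of the 89 genes 63 were higher in CIA than in healthy tissue at an edgeR adjusted p under 0.05 (70.8%), where 26% of all genes were higher. Only Rpl3l was lower (1 of 89), where 19.5% of all genes were. The median log2 fold change was 0.41, against 0.07 for all genes tested. Without CIA 2 the higher genes numbered 41 of 89, against 22.2% of all genes (and 16.1% lower), and without healthy 5 they numbered 41 as well, against 21.5%. The skeletal muscle covariate above ended all but 1 of these calls. Scaling by total counts in place of TMM moved the median of all genes to 0.38 and that of the 89 to 0.73, and 84.5% of all calls were then higher in CIA, against 57.1% under TMM. The 89 lay above the median of all genes by 0.34 under TMM and by 0.35 under total counts.

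All 77 core genes had a positive fold change, and 59 of them passed the test. Of 43 large subunit genes 33 rose (median 0.39), of 31 small subunit genes 23 rose (median 0.40), and all 3 stalk genes rose (median 0.49). The large subunit genes had 1.23 to 1.31 times the reads of the small subunit genes in CIA, against 1.25 to 1.29 times in healthy, so the balance of the subunits overlapped. Groups were fully separated for 19 genes in the upward direction, 21.3% of the 89, where 11.7% of all genes were, and for 1 gene downward, where 12.5% were. The lowest core fold changes were those of Rpl36 at 0.05 and Rps29 at 0.10, neither of which passed the test.

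Single genes show the size of the shift. Rps6, the small subunit protein that S6 kinases phosphorylate, had 401, 462, 327, 488 and 372 CPM in CIA, against 280, 285, 295, 348 and 272 CPM in healthy (log2 fold change 0.47 ± 0.11 SE, adjusted p = 0.00354). CIA 3 fell below healthy 4, so the groups overlapped. Rplp0, the base of the stalk that binds elongation factors, had 480, 648, 399, 537 and 432 CPM in CIA, against 357, 346, 335, 425 and 298 CPM in healthy (0.50 ± 0.13, adjusted p = 0.00565). Here too only healthy 4 reached into the CIA range. Rpsa, a small subunit protein that is also known as a laminin receptor, had 199, 271, 166, 230 and 194 CPM in CIA, against 133, 154, 138, 162 and 129 CPM in healthy (0.57 ± 0.12, adjusted p = 0.00199), with no overlap.

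Among the named genes with the largest rises, Rps12, a small subunit protein of the beak region, stood out after Rpl3. It had 231, 209, 128, 184 and 131 CPM in CIA, against 90, 103, 98.9, 114 and 91.5 CPM in healthy (0.83 ± 0.15, adjusted p = 0.000811). The groups were separate, and CIA 3 and CIA 5 were the lowest in CIA. Rps18 had 9.91 to 18.3 CPM in CIA, against 6.56 to 8.66 CPM in healthy (0.68 ± 0.17, adjusted p = 0.00579). Rpl7a (0.94 ± 0.32, adjusted p = 0.0271) and Rpl17 (0.79 ± 0.27, adjusted p = 0.0275) also rose, but their CIA and healthy libraries overlapped. Rpl7a has 78 genomic copies and Rpl17 has 54, and each lost its call without CIA 2 (adjusted p = 0.0783 for Rpl7a and 0.0969 for Rpl17) or healthy 5 (0.0679 and 0.0703), among others.

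**Figure D3:**
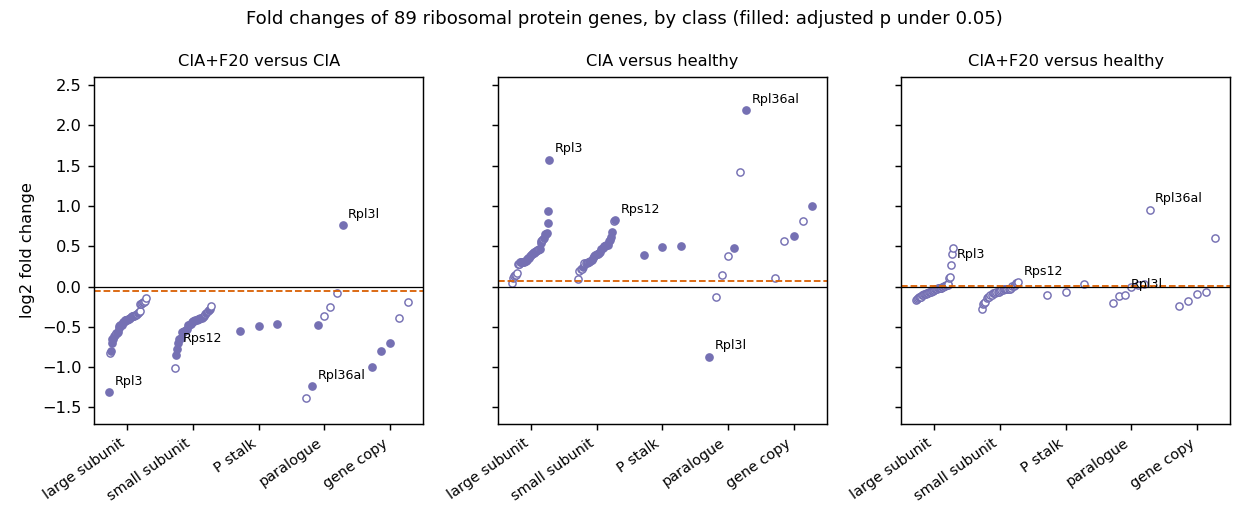
Log2 fold change of each of the 89 genes by class for CIA+F20 versus CIA, CIA versus healthy and CIA+F20 versus healthy. Filled points passed an adjusted p under 0.05, and the dashed line is the median of all 15770 genes tested. Core genes lie below 0 in the first panel, above 0 in the second and around 0 in the third, while Rpl3l lies on the other side of 0 in the first 2 panels.

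The clearest change within the family was in Rpl3 and its muscle paralogue. Rpl3 (ENSMUSG00000060036, GRCm39 chr15:79961992-79976069, minus strand) had 150, 236, 96.1, 202 and 120 CPM in CIA, against 46.4, 60.9, 56.3, 62.4 and 44.0 CPM in healthy. Every CIA library was above every healthy one, and the gene rose 2.98-fold (log2 1.58 ± 0.20, adjusted p = 0.000203). In CIA+F20 it had 64.3, 62.7, 68.4, 62.3 and 67.1 CPM, below every CIA library, and it fell in CIA+F20 relative to CIA (log2 -1.31 ± 0.20, adjusted p = 0.00222). These were the largest changes of any core gene in either comparison.

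Rpl3l (ENSMUSG00000002500, GRCm39 chr17:24946794-24955117, plus strand) had 377, 186, 446, 200 and 365 CPM in CIA, against 644, 575, 552, 554 and 552 CPM in healthy. All CIA libraries were below all healthy ones, with CIA 2 and CIA 4 lowest (log2 -0.87 ± 0.20, adjusted p = 0.0034). In CIA+F20 it had 491, 579, 574, 522 and 503 CPM, above every CIA library (0.76 ± 0.20 against CIA, adjusted p = 0.0143). It was the only member called lower in CIA and the only one called higher in CIA+F20 than in CIA. With the muscle covariate neither call passed (-0.31, adjusted p = 0.229, for CIA against healthy and 0.35, adjusted p = 0.18, for CIA+F20 against CIA). Rpl3 passed both with it (0.85, adjusted p = 0.00866, and -0.73, adjusted p = 0.0241). The coding sequences of Rpl3 and Rpl3l were 74.4% identical over the aligned bases. Rpl3l had no further copy in the genome, whereas Rpl3 had 21, so the Rpl3 counts are the less certain of the pair.

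Counted per coding length, Rpl3 made up 28.7, 56.1, 17.9, 50.5 and 24.9% of the pair in CIA, against 6.78, 9.67, 9.33, 10.2 and 7.45% in healthy. In CIA+F20 it made up 11.7, 9.85, 10.7, 10.8 and 11.9%. The CIA libraries lay apart from both other groups. CIA 2 and CIA 4, with the lowest shares of the skeletal muscle list, had about equal counted reads per coding length from the 2 genes. Because Rpl3 has 21 genomic copies and Rpl3l none, these percents describe counted reads and do not show equal amounts of message. The log2 ratio of Rpl3 to Rpl3l differed by 2.47 between CIA and healthy and by -2.08 between CIA+F20 and CIA. Each gave an exact two-sided permutation p of 0.00794, the smallest that 252 assignments allow (0.019 adjusted over 12 tests, 4 ratios in 3 comparisons). Between CIA+F20 and healthy it differed by 0.39 (exact permutation p = 0.0159, adjusted 0.0317), and the groups overlapped. Per 1000 reads of that list Rpl3l had 3.67 reads in CIA, against 4.40 reads in healthy (exact permutation p = 0.0873, adjusted 0.15), a difference that did not pass.

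Rpl3 also moved relative to the rest of the ribosome. As a log2 ratio to the summed reads of the core genes it was higher by 1.14 in CIA than in healthy, and differed by -0.82 between CIA+F20 and CIA. Its ratio was also higher by 0.32 in CIA+F20 than in healthy, with no overlap between these groups. All 3 gave an exact permutation p of 0.00794, the smallest possible, or 0.019 adjusted over the 12 tests. In the fit across all genes the difference in Rpl3 between CIA+F20 and healthy did not pass (log2 0.27 ± 0.20, adjusted p = 0.785), nor when the libraries were scaled to the summed ribosomal reads (0.31, adjusted p = 0.682).

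When every gene was scaled to the summed reads of the core genes, which asks how members changed against each other, 5 of 89 were higher and 9 lower in CIA than in healthy. On that scale 11.6% of all genes were higher and 38.6% lower. Rpl3 was higher by 1.16 (adjusted p = 0.000292) and Rps12 by 0.43, while Rpl3l was lower by -1.20 and Rpl36 by -0.34. In CIA+F20 against CIA 5 of 89 were higher, where 38.7% of all genes were, and 2 were lower, where 2.53% were. Those lower were Rpl3 by -0.85 (adjusted p = 0.0015) and Rps12 by -0.34. The Rps12 call was lost without the filter on low counts, with only those groups fitted, with the replicate block, with the muscle covariate, and without any 1 of the healthy libraries, CIA 4, or CIA+F20 1, 2, 4 or 5. The shares of the 89 on this scale were below those of all genes, except those lower in CIA+F20, which were near. Scaling to the core genes sets the family near 0 in advance (median of the 89 0.01 in both comparisons). The smaller shares therefore follow from the scale and say nothing about the members. With single libraries left out, the genes higher in CIA+F20 numbered 1 to 7. Rpl3 kept its call in both comparisons without any 1 library and with the muscle covariate.

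**Figure D4:**
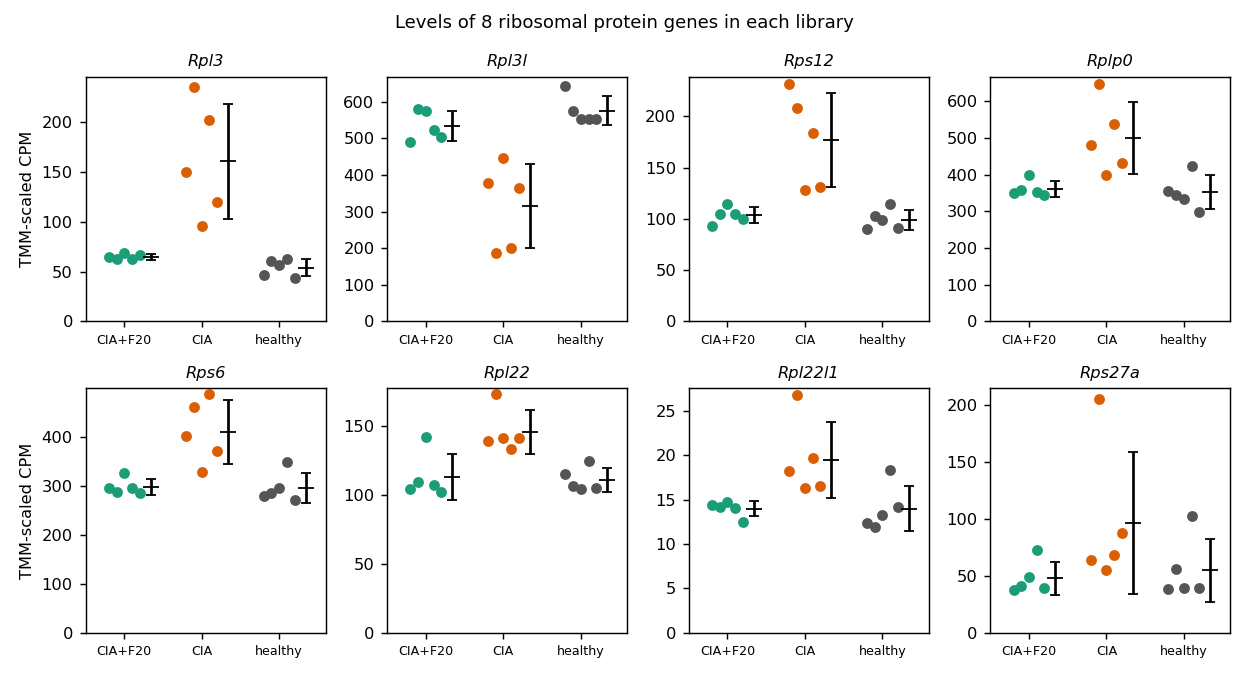
TMM-scaled CPM of 8 genes in each library (points), with group mean and SD (bars, n = 5), from CIA+F20 at the left to healthy at the right. Rpl3 and Rps12 are above both other groups in all CIA libraries and Rpl3l is below them, while in Rps27a CIA 2 alone reaches 206 CPM.

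In no other paralogue pair did the members pass the test in opposite directions. Rpl22 is a large subunit protein that also binds other RNAs, and Rpl22l1 is its close relative. Rpl22 had 133 to 174 CPM in CIA, against 105 to 125 CPM in healthy (0.39 ± 0.10, adjusted p = 0.00708). Rpl22l1 had 16.3 to 26.8 CPM in CIA, against 11.9 to 18.4 CPM in healthy (0.48 ± 0.14, adjusted p = 0.0142). Both rose, and their log2 ratio differed by 0.08 (exact permutation p = 0.484, adjusted 0.581). Rps27 (0.20 ± 0.18, adjusted p = 0.389) and Rps27l (0.15 ± 0.11, adjusted p = 0.311) did not pass the test. Rps27rt has a coding sequence 100% identical to that of Rps27 over 252 bases, so reads of the pair cannot be assigned with certainty.

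Rpl36a had 72.1 to 117 CPM in CIA, against 50.9 to 70.0 CPM in healthy (0.65 ± 0.14, adjusted p = 0.00211), with no overlap. Its relative Rpl36al, of which 95.3% lies in another gene's exon, was at most 1.11 CPM in any library. It had 0.650 ± 0.309 CPM in CIA, against 0.137 ± 0.0918 CPM in healthy (SD, n = 5; log2 2.19 ± 0.46, adjusted p = 0.00199), and a total of 143 reads in 15 libraries. Rpl39 rose (0.54 ± 0.18, adjusted p = 0.0271), while Rpl39l, an Rpl39 paralogue known from testis, stayed under 1 CPM in all libraries and did not pass (adjusted p = 0.0667). Rpl7 rose (0.33 ± 0.11, adjusted p = 0.0241), and Rpl7l1, a relative with a role in ribosome assembly, had 43.7 ± 5.04 CPM in CIA and 47.6 ± 1.10 CPM in healthy (-0.12 ± 0.08, adjusted p = 0.235). The calls of Rpl7, Rpl39 and Rplp1 in CIA were lost without CIA 2 or healthy 5. That of Rpl7 was also lost without healthy 1, 2 or 3, and that of Rpl39 without healthy 3 or CIA 1. Rpl10 (0.45 ± 0.10, adjusted p = 0.00267) and Rps4x (0.52 ± 0.11, adjusted p = 0.00164) both rose with no overlap.

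F20 treatment went with lower ribosomal protein messages. Between CIA+F20 and CIA 29.6% of all genes tested passed in either direction. Of the 89 genes 67 were lower in CIA+F20 than in CIA (75.3%), where 15.5% of all genes tested were lower, and 1 was higher, Rpl3l, where 14.1% of all genes were. The median log2 fold change was -0.42, against -0.06 for all genes. Without CIA 2 the lower genes numbered 48, where 8.82% of all genes were lower and 9.28% higher. With the muscle covariate 1 gene, Rpl3, was called lower, where 0.881% of all genes were, and the median of the 89 was -0.32. None was higher with it, where 1.67% of all genes were. Under total-count scaling 14.8% of all calls were higher in CIA+F20, against 47.5% under TMM, and the 89 lay below the median of all genes by -0.37, against -0.36 under TMM. This comparison uses the same CIA libraries as the comparison with healthy, so a high CIA value enters both. Cell markers moved in this comparison too: 11 of 13 macrophage and 3 of 10 neutrophil genes fell in CIA+F20, and 4 of 17 muscle and 4 of 6 slow muscle genes rose. Of 15 synovial and fibroblast genes 3 fell and 1 rose, of 8 proliferation genes 1 fell, and of 8 endothelial genes 1 rose. Of 2 tested keratinocyte genes 1 fell. None of the 10 granulocyte precursor, 9 erythroid, 8 B and plasma cell and 4 tested T cell genes passed. The macrophage markers summed to 0.027 to 0.0477% of reads in CIA+F20, against 0.0509 to 0.147% in CIA, and the part of these immune cells in the result was not tested.

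All 77 core genes had a negative fold change and 62 passed the test. Of the large subunit genes 32 fell (median -0.41), of the small subunit genes 27 (median -0.42), and all 3 stalk genes (median -0.49). In 33 genes, 37.1% of the 89, every CIA+F20 library was below every CIA library, where 5.32% of all genes were so, and Rpl3l was the reverse, where 8.28% were. Rps12 had 93.0, 105, 114, 105 and 99.5 CPM in CIA+F20, all below the CIA values given above (-0.77 ± 0.15, adjusted p = 0.00411). Rpl41 had 129, 188, 217, 204 and 167 CPM in CIA+F20, against 311, 410, 262, 258 and 223 CPM in CIA (-0.69 ± 0.16, adjusted p = 0.00872), also without overlap. Rplp1 had 240 to 342 CPM in CIA+F20, against 356 to 544 CPM in CIA (-0.49 ± 0.12, adjusted p = 0.012). The falls of Rpl22, Rpl22l1, Rpl36al and Rpl39 passed with all libraries but not without CIA 2. That of Rpl22l1 was also lost without CIA+F20 5, and that of Rpl39 without CIA 1 or CIA+F20 1. That of Rpl36al was also lost without any 1 of healthy 2, CIA 1, CIA 4 or CIA+F20 2, 3, 4 or 5.

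Among the 5 called genes with the largest falls by the naming rule were also some with few reads. Rpl13a had 3.85 to 6.41 CPM in CIA+F20, against 6.38 to 10.8 CPM in CIA (-0.80 ± 0.19, adjusted p = 0.00893), and only CIA+F20 4 and CIA 5 overlapped. Rps18 (-0.71 ± 0.17, adjusted p = 0.0106) and its copy Rps18-ps5 (-0.70 ± 0.16, adjusted p = 0.00892) fell by like amounts. Rps27a, made as a fusion with ubiquitin, had 37.2, 40.7, 48.7, 72.7 and 39.8 CPM in CIA+F20, against 64.0, 206, 55.5, 68.4 and 87.5 CPM in CIA. CIA 2 stood far above the others, and the difference did not pass (-1.01 ± 0.37, adjusted p = 0.0544).

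No member passed the test between CIA+F20 and healthy tissue, which at this number of libraries does not show that the groups are alike. Here 0 of 89 genes were called by edgeR, as were 0% of all 15770 genes. At an unadjusted p under 0.05 there were 2 of 89, against 1388 of all genes. DESeq2 also called 0 of 89, and of all genes 113 as higher and 11 as lower. Groups were separate for 0 of 89 genes upward, where 1.98% of all genes were, and for 1 downward (Rpl7l1), where 1.27% were. The median log2 fold change of the 89 was -0.05, against 0.01 for all genes, and that of the core genes lay between -0.27 and 0.48. Rps6 had 298 ± 16.4 CPM in CIA+F20 and 296 ± 30.3 CPM in healthy (0.01 ± 0.11, adjusted p = 0.994). The macrophage markers summed to 0.027 to 0.0477% of reads in CIA+F20, against 0.00841 to 0.0309% in healthy, and none of the 13 passed the test.

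The genes without close genomic copies showed both differences. In 11 core genes less than 25% of the coding sequence was found elsewhere at 98% identity and no other gene's exon overlapped on the same strand, among them Rpl4, Rpl8, Rpl22 and Rps3. All 11 rose in CIA, with log2 fold changes of 0.24 to 0.51 and a median of 0.38, where 26% of all genes rose. All 11 fell in CIA+F20 relative to CIA, by -0.28 to -0.54 with a median of -0.40, where 15.5% of all genes fell. The 63 core genes with more coverage, which leaves out 3 that lie in another gene's exon, had medians of 0.41 and -0.42. The 14 genes with the tract at a start had medians of 0.35 in CIA against healthy and -0.43 in CIA+F20 against CIA. The 17 with a tract only within 5 bases of a start had 0.45 and -0.48. The 34 with windows but no tract near the start had 0.41 and -0.41, so the order of the sets was not the same in both comparisons.

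Other parts of the translation machinery moved unevenly. Of the ribosomal proteins with other names, Fau, made as a fusion with a ubiquitin-like domain, had 162 ± 27.0 CPM in CIA and 110 ± 10.6 CPM in healthy (0.55 ± 0.13, adjusted p = 0.00296). Rack1, a scaffold on the small subunit, rose as well (0.35 ± 0.10, adjusted p = 0.014). Between CIA+F20 and CIA, Fau (-0.63 ± 0.13, adjusted p = 0.00469) and Rack1 (-0.34 ± 0.10, adjusted p = 0.0283) fell. This call of Rack1 was lost without any 1 of CIA 2, CIA 4 or CIA+F20 1, 2, 4 or 5.

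Among 19 elongation factors and other genes known for TOP messages, 9 rose and none fell in CIA (median 0.19), where 26% of all genes rose and 19.5% fell. In CIA+F20 against CIA 7 fell (median -0.22), where 15.5% of all genes did. Eef1a1, which delivers aminoacyl-tRNA to the ribosome, averaged 1654 ± 514 CPM in CIA and 718 ± 114 CPM in healthy (1.20 ± 0.19, adjusted p = 0.000431). It averaged 809 ± 53.9 CPM in CIA+F20 (-1.03 ± 0.19 against CIA, adjusted p = 0.00342). Eef1a2, the form that muscle uses in its place, averaged 873 ± 275 CPM in CIA and 1148 ± 63.0 CPM in healthy and did not pass (-0.39 ± 0.17, adjusted p = 0.0639). Npm1, a nucleolar chaperone, rose by 0.75 ± 0.14 (adjusted p = 0.00106) and Nap1l1, a histone chaperone, by 0.73 ± 0.14 (adjusted p = 0.00128). With the muscle covariate Eef1a1 still passed in CIA against healthy (0.69, adjusted p = 0.0419) but not in CIA+F20 against CIA.

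Of 20 translation initiation factors 3 were higher and 3 lower in CIA (median 0.06), shares below the 26 and 19.5% of all genes. Eif4e, which binds the cap, averaged 79.96 ± 8.59 CPM in CIA and 133 ± 9.41 CPM in healthy (-0.74 ± 0.09, adjusted p = 0.000169). It averaged 121 ± 11.5 CPM in CIA+F20 (0.60 ± 0.09 against CIA, adjusted p = 0.00222). Both calls of Eif4e held with the muscle covariate, and of the other genes that the naming rule took from outside the family only Eef1a1 kept one. Eif4a1, the helicase of the same complex, rose in CIA (0.79 ± 0.23, adjusted p = 0.0125), as did Eif6, which keeps free subunits apart (0.72 ± 0.19, adjusted p = 0.00734). Of the 20, 1 was higher and 2 were lower in CIA+F20 relative to CIA, where 14.1 and 15.5% of all genes were.

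Of 30 ribosome assembly genes 8 were higher in CIA (median 0.27), a share near the 26% of all genes, and none was lower, where 19.5% of all genes were. Relative to CIA, 6 of the 30 were lower in CIA+F20 (median -0.30), where 15.5% of all genes were. Fbl, the methyltransferase of ribosomal RNA, averaged 32.0 ± 10.1 CPM in CIA and 18.6 ± 2.89 CPM in healthy (0.78 ± 0.18, adjusted p = 0.00303). Ncl, or nucleolin, rose by 0.50 ± 0.14 (adjusted p = 0.00964) and Rrp1b by 0.52 ± 0.14 (adjusted p = 0.00672). All 7 tested hosts of small nucleolar RNAs with TOP starts rose in CIA (median 0.85), where 26% of all genes rose, and fell in CIA+F20 against CIA (median -0.83), where 15.5% of all genes fell. Gas5 averaged 65.8 ± 27.6 CPM in CIA and 29.1 ± 8.88 CPM in healthy (1.18 ± 0.26, adjusted p = 0.00239). Snhg12 (0.94 ± 0.18, adjusted p = 0.00106) and Snhg6 (0.81 ± 0.17, adjusted p = 0.00171) rose with it.

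Of 23 genes of the mTOR pathway and of regulators of these messages, 6 were higher in CIA, a share near the 26% of all genes, and 7 lower, where 19.5% of all genes were (median -0.04). Rptor, a subunit of the mTOR complex that acts on translation, averaged 41.3 ± 6.94 CPM in CIA and 58.5 ± 2.2 CPM in healthy (-0.50 ± 0.09, adjusted p = 0.00107). Ddit4 and Sesn2, which restrain that complex, rose by 1.28 ± 0.31 (adjusted p = 0.00428) and 0.71 ± 0.17 (adjusted p = 0.00421). Relative to CIA, 2 were higher and 5 lower in CIA+F20, where 14.1 and 15.5% of all genes were, with Rptor higher (0.44 ± 0.09, adjusted p = 0.00617) and Ddit4 lower (-1.22 ± 0.31, adjusted p = 0.0118). Max, the partner of Myc, was also lower (-0.44 ± 0.12, adjusted p = 0.0164). Myc itself rose in CIA against healthy (2.32 ± 0.60, adjusted p = 0.00664). It was lower in CIA+F20 than in CIA (-1.87 ± 0.59, adjusted p = 0.0293). Libraries overlapped in both comparisons of Myc, and its values with the muscle covariate are not given here. None of the genes of these lists was called between CIA+F20 and healthy.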

How the data were processed

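Libraries were grouped by title. The submitters' processing notes name fastp 0.23.2, HISAT2 2.2.1, featureCounts 2.0.3 and the build GRCm39. The deposited values are the authors' raw read counts per gene. Which annotation, strand option and rule for reads with several hits were used is not given in the sources used here. Counts were tested in R 4.3.3 with edgeR 4.0.16 (TMM, filterByExpr with a minimum count of 10, 3 groups fitted together, quasi-likelihood F test, Benjamini-Hochberg over 15770 genes). DESeq2 1.42.0 was an alternative. A fold change is log2 with its SE, and a call is an adjusted p under 0.05. The procedure was tested on simulated counts. Ratios of genes were compared by exact two-sided permutation of 5 against 5 libraries. Coding sequences from GENCODE vM39 were searched against GRCm39 with BLAST+ 2.17.0+. Named genes were, among called members whose log2 CPM averaged 1 or more, the 5 most raised and 5 most lowered per comparison, the extremes of level, paralogue pairs, stalk genes and up to 3 called genes per other list. Others, such as Rpl36, Rps29, Myc and the genes listed for copies or windows, were named after their values were seen. Some genes that the rule names are not reported here. The members and lists were chosen with earlier results of these data known. No library duplicated another: the chi-square per gene between 30 pairs of libraries of a group was 22.0 to 272. Alternatives were other scalings, no filter, fewer groups, single libraries left out, a replicate block and a muscle covariate; the fit relative to the ribosomal protein reads was chosen after seeing the data.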

Additional observations from a re-analysis of the deposited data

Results flagged for a closer look

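In 15 of 99 groups of 5 libraries checked, the highest or lowest library of a gene stood apart by more than Dixon's limit of 0.71 of the range, where chance gives about 5%. In the healthy group, healthy 4 was the library apart for Rpl7 at 436 CPM, Rpl13a at 7.73 CPM, Rpl36a at 70.0 CPM, Rps24 at 411 CPM and Rps27a at 103 CPM, and healthy 1 for Rpl3l at 644 CPM. In the CIA+F20 group, CIA+F20 3 stood apart for Rpl22 at 142.5 CPM, Rpl36a at 69.0 CPM, Rplp0 at 398 CPM, Rps6 at 326 CPM and Rps24 at 391 CPM. In the CIA group, CIA 2 stood apart for Rpl22 at 174 CPM, Rps18 at 18.3 CPM and Rps27a at 206 CPM, and CIA 3 for Rpl36a-ps1 at 0.538 CPM. All of these were the highest value of their group. Healthy 4 had the fewest reads of all libraries and CIA 2 the highest ribosomal share. Marker sums of healthy 4 also stood apart. Of all libraries it had the lowest synovial and fibroblast sum (0.0744% of reads) and the highest T cell (0.00703%) and endothelial (0.0692%) sums. The part of depth, ribosomal share and tissue make-up in these values was not tested.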

How the results depend on the processing

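In CIA against healthy the members called higher (63) numbered 37 when only those groups were fitted, 1 with the muscle covariate and 41 to 67 with single libraries left out. Members called lower (1) numbered 0 with the muscle covariate or without the paralogues, and 1 to 2 with single libraries left out. The median fold change was 0.73 under total-count scaling and 0.21 with the muscle covariate. In CIA+F20 against CIA the members called lower (67) numbered 1 with the muscle covariate and 48 to 71 with single libraries left out, and the one called higher became 0 with the muscle covariate or without the paralogues. The median was -0.68 under total-count scaling and -0.32 with the muscle covariate. The summed share differed by -0.883 percentage points outside mitochondrial reads and those of the skeletal muscle list, and by -0.836 to -0.570 with single libraries left out. DESeq2, RLE and upper-quartile scaling kept the counts within 1.5 times.

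Relative to the ribosomal protein reads, members higher in CIA (5) numbered 3 without the filter, 2 with only those groups, 3 with the replicate block and 1 with the muscle covariate; members lower (9) numbered 3, 2, 4 and 0, and 4 to 10 with single libraries left out. In CIA+F20 against CIA members higher (5) numbered 1 under each of these settings and 1 to 7 with single libraries left out, and members lower (2) numbered 1 under each and 1 to 4. Signs turned, with no call, for Rpl29 (-0.27 in CIA against healthy and 0.23 in CIA+F20 against CIA), Rpl7l1 (0.052 in CIA+F20 against CIA) and Rpl3l (0.042 in CIA+F20 against healthy) with the muscle covariate. The sign also turned for Rpl7l1 (0.19) in CIA against healthy under total-count scaling. The cause was not tested.

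Same-numbered libraries of different groups had correlations of -0.39 to 0.24. In the 3 pairs of groups 2, 1 and 0 of 5 libraries correlated best with their own number. With 5 libraries per group these values cannot decide whether same-numbered libraries shared a batch or handling. With the replicate block 57 members were higher in CIA than in healthy, and 60 were called lower between CIA+F20 and CIA. Members with few reads, such as Rpl29 with 212 over all libraries, limit what single genes can show.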
